A study of Mus musculus with 9 samples.

Results

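The genes described here are 10 genes of lipid metabolism and lipid peroxide control that set how sensitive a cell is to ferroptosis. They were chosen by name, with earlier results of these data known: Acsl4, Acsl3, Lpcat3, Gpx4, Aifm2, Gch1, Scd1, Scd2, Sat1 and Por. All 10 were found by their Ensembl identifiers among the 55416 genes counted, and all 10 passed the filter on low counts, as did 13439 genes in all. RNA was sequenced from 4T1 cells, which derive from a mammary tumour of a BALB/c mouse. MRC+L cells were given MRC nanoparticles for 12 h and were irradiated with 660 nm light for 3 min at 180 mW per square centimetre. MRC cells were given MRC nanoparticles for 12 h without irradiation. PBS cells were given fresh DMEM for 12 h, and the labels call them untreated. There were 9 libraries, 3 in each group. What MRC stands for is not given, and elsewhere the labels give the irradiance in mV. Every group is the same cell line, and the effect of light without nanoparticles was not analysed here.

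Ferroptosis is an iron-dependent death in which peroxides of polyunsaturated phospholipids build up in membranes. Polyunsaturated fatty acids become substrates once they are activated to acyl-CoA and built into phospholipids, whereas monounsaturated acyl chains resist peroxidation. The glutathione peroxidase GPX4 reduces phospholipid hydroperoxides to alcohols. Reduced ubiquinone, vitamin K hydroquinone and tetrahydrobiopterin trap lipid radicals independently of it. Electrons passed on by cytochrome P450 oxidoreductase can feed the peroxidation itself.

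The libraries held 15019765 to 20044166 counts, and the 3 counts that a count of 0 still allows come to 0.15 to 0.2 CPM (counts scaled to library size). Levels below are CPM adjusted by the TMM factors of edgeR. The labels do not say that the replicates came from separate cultures, so p-values measure only the spread between these libraries, which may be technical. PBS replicate 2 stood apart from the other libraries. Its short genes were higher and its long genes lower, with a difference of 1.25 on the log2 scale between short and long genes, against -0.32 to 0.142 in the other 8 libraries. With it the biological coefficient of variation was 0.172, and without it 0.0822, so the genes are also described without it. Among 8 epithelial markers, Krt8 and Krt18 carried most of the signal, Cdh1 was at 1.95 to 3.29 CPM in MRC+L cells, 2.98 to 3.42 CPM in MRC cells and 3.82 to 5.17 CPM in PBS cells, and Epcam, an adhesion molecule of epithelia, had 5 or fewer counts in every library. Krt14, a basal keratin, ran the other way, at 1.4 to 1.47 CPM in MRC+L cells, 1.63 to 1.96 CPM in MRC cells and 0.104 to 0.412 CPM in PBS cells, as did Esrp1 with 8 or fewer counts in every library. The summed level of the epithelial list was 558 to 572 CPM in MRC+L cells, 634 to 666 CPM in MRC cells and 1056 to 1876 CPM in PBS cells. Of 8 leukocyte markers, 6 had 5 or fewer counts in every library, Ptprc among them, and the list summed to 17.5 to 19.7 CPM in MRC+L cells, 16.7 to 22.3 CPM in MRC cells and 7.05 to 12.1 CPM in PBS cells, nearly all of it Cd68. The 8 fibroblast and endothelial markers summed to 77.3 to 88.3 CPM in MRC+L cells, 80.5 to 97.5 CPM in MRC cells and 46.5 to 83.5 CPM in PBS cells. In that list Pdgfra was higher with nanoparticles, at 66.7 to 76 CPM in MRC+L cells, 70.1 to 85.2 CPM in MRC cells and 29.6 to 57.6 CPM in PBS cells, and Pdgfrb lower, at 4.91 to 6.21 CPM in MRC+L cells, 4.37 to 7.54 CPM in MRC cells and 12.4 to 19.8 CPM in PBS cells. The part of these shifts in the results below was not tested, and in bulk RNA fewer cells of a type and less RNA per cell cannot be told apart.

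In MRC+L cells against PBS cells, Sat1 and Acsl3 rose and Gpx4, Aifm2 and Por fell. That is 2 genes higher and 3 lower of 10, at a Benjamini-Hochberg adjusted p under 0.05 in edgeR's quasi-likelihood test over all 9 libraries. Over all 13439 tested genes 46.2% were called in this comparison, 21.8% higher and 24.5% lower, so the share of the lipid genes called was near that of all genes. In MRC cells against PBS cells, Sat1 rose and Gpx4, Aifm2 and Por fell, which is 1 gene higher and 3 lower, where 37.6% of all genes were called, 17.8% higher and 19.8% lower. In MRC+L cells against MRC cells 0 of the 10 genes were called by the same test. There 0% of all genes were called. By separation of libraries, 3 genes were higher in every MRC+L library than in any PBS library and 3 lower, where 56.3% of all genes were apart, 28.2% higher and 28.1% lower. In MRC cells 2 were higher and 3 lower, where 48.3% were apart, 24.1% higher and 24.2% lower. Both comparisons with PBS use the same 3 PBS libraries, so their values stand side by side and are not separate evidence. The median log2 fold change of the 10 genes was -0.14 in MRC+L cells and 0.00 in MRC cells against PBS cells, beside -0.03 over all tested genes in either comparison.

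**Figure D1:**
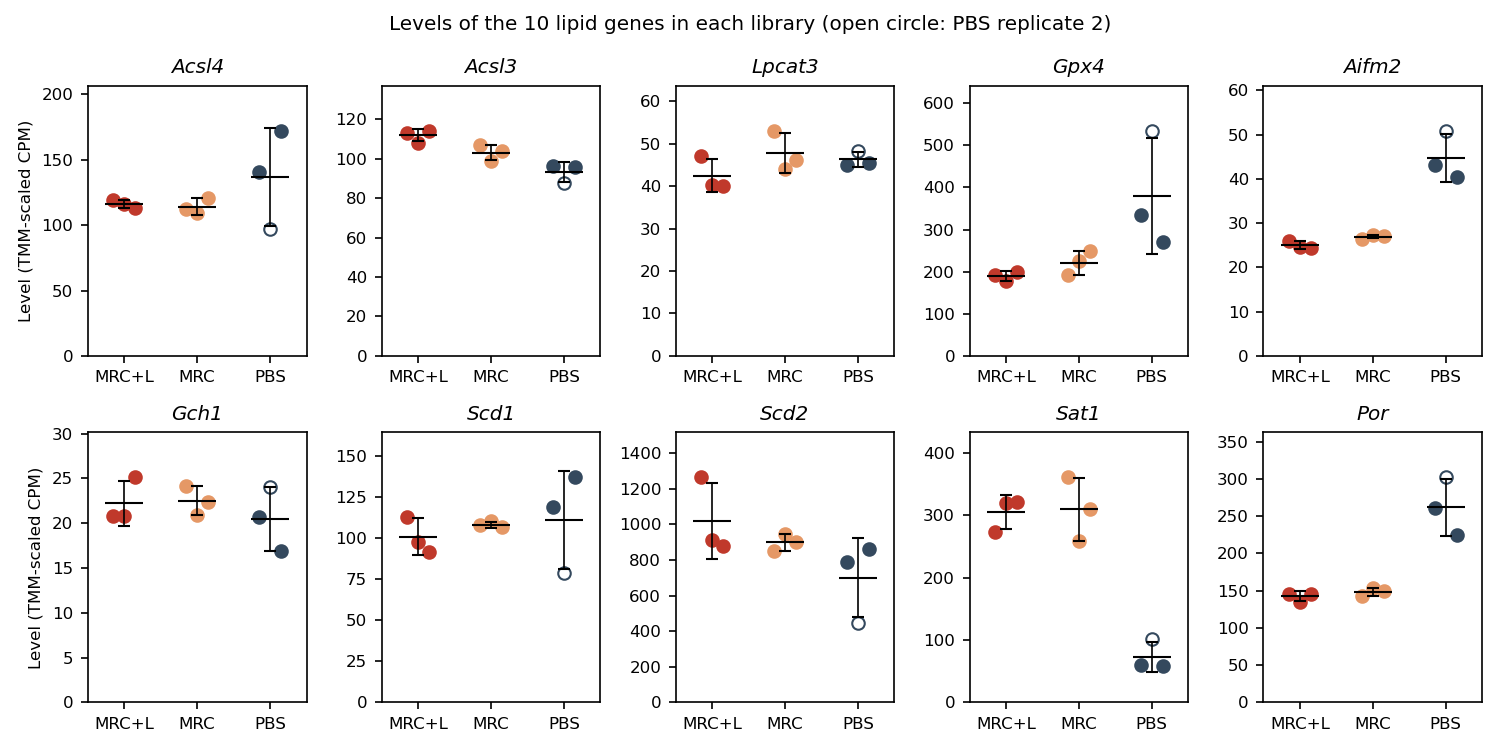
Level of each of the 10 lipid genes in TMM-scaled CPM (vertical axis, from 0) in the MRC+L, MRC and PBS libraries (horizontal axis). Points are libraries, horizontal bars are group means, error bars are the SD of 3 libraries, and the open circle is PBS replicate 2. Sat1 lies between 259 and 361 CPM in both nanoparticle groups and at or below 102 CPM in PBS cells, whereas Aifm2 and Por are lower in every nanoparticle library than in any PBS library.

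The first step towards peroxidation is the activation and membrane insertion of polyunsaturated acyl chains, by Acsl4 and Lpcat3. Neither was called by edgeR in any of the 3 comparisons over all 9 libraries, whereas limma voom called Acsl4 lower in both comparisons with PBS. Acsl4 (ENSMUSG00000031278) encodes the acyl-CoA synthetase that prefers arachidonic and adrenic acid, and it lies on the minus strand at chrX:141100989-141173531 (GRCm39, as all gene positions here). It had 119, 116 and 113 CPM in MRC+L cells, 112, 109 and 121 CPM in MRC cells, and 141, 97.2 and 172 CPM in PBS cells. The nanoparticle libraries lay close together, and PBS replicate 2 was the lowest of the 9 libraries while the other PBS libraries were the highest, so the groups overlapped. The log2 fold change was -0.24 (SE 0.174, adjusted p = 0.281) for MRC+L and -0.26 (SE 0.174, adjusted p = 0.263) for MRC against PBS. Without PBS replicate 2 the log2 fold changes were -0.44 for MRC+L (SE 0.0912, adjusted p = 0.000388) and -0.46 for MRC (SE 0.0911, adjusted p = 0.000237), and both passed. Acsl4 also passed in limma voom with quality weights, fitted to all 9 libraries. There it was at -0.30 for MRC+L (adjusted p = 0.000265) and -0.31 for MRC (adjusted p = 0.000579). Such weights can lower the share of a library that lies apart, so this fit is not separate evidence from the one without PBS replicate 2. Whether Acsl4 counts as lower depends on how that library is treated.

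Lpcat3 (ENSMUSG00000004270), at chr6:124639990-124681381 on the plus strand, encodes the acyltransferase that puts arachidonoyl chains into lysophospholipids. It had 47, 40.3 and 40.1 CPM in MRC+L cells, 53, 44.1 and 46.2 CPM in MRC cells, and 45.1, 48.4 and 45.5 CPM in PBS cells. The highest library was MRC replicate 1 and the lowest were 2 MRC+L libraries, and every pair of groups overlapped. Its log2 fold change was -0.12 (95% interval -0.37 to 0.12) for MRC+L and 0.04 (-0.20 to 0.29) for MRC against PBS, and the small positive value for MRC turned to -0.03 without MRC replicate 1. The values were -0.09 for MRC+L (adjusted p = 0.469) and 0.07 for MRC (adjusted p = 0.602) without PBS replicate 2. Lpcat3 overlaps Emg1 on the opposite strand, which shared 8.39% of its 50-base windows and had 1288 to 2650 counts, and since no strand option was used its counts are uncertain.

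Monounsaturated chains enter phospholipids through Acsl3 and are made by the stearoyl-CoA desaturases Scd1 and Scd2. Acsl3 (ENSMUSG00000032883) encodes the acyl-CoA synthetase that activates exogenous oleate and lies at chr1:78635542-78685460 on the plus strand. It had 113, 108 and 114 CPM in MRC+L cells, 107, 99 and 104 CPM in MRC cells, and 96.1, 87.4 and 96 CPM in PBS cells. The 3 groups did not overlap, and every MRC+L library was above every MRC library and every MRC library above every PBS library. Acsl3 rose in MRC+L cells with a log2 fold change of 0.26 (SE 0.0903, adjusted p = 0.0369), and 0.15 (SE 0.0903, adjusted p = 0.219) was found for MRC. Leaving out PBS replicate 1 ended the MRC+L call (adjusted p = 0.076), as did leaving out MRC replicate 1 or 3 (0.0562 and 0.0624), and MRC+L replicate 1, 2 or 3 (0.104, 0.0756 and 0.108), while the log2 fold change stayed at 0.25 to 0.29. The MRC+L call held without PBS replicate 2, at 0.22 (adjusted p = 0.0276), where MRC was at 0.10 (adjusted p = 0.32). It was also lost without the filter (0.22) and with only the 6 libraries compared (0.0777). Acsl3 shares 3.59% of its windows with Utp14b, which overlaps it on the same strand and had 183 to 432 counts.

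Scd1 (ENSMUSG00000037071) and Scd2 (ENSMUSG00000025203) introduce the cis bond that turns stearate into oleate. They lie 87591 bases apart on opposite strands, Scd1 on the minus strand at chr19:44382894-44396318 and Scd2 on the plus strand at chr19:44282113-44295303. Scd1 had 113, 97.5 and 91.5 CPM in MRC+L cells, 108, 110.3 and 107 CPM in MRC cells, and 119, 78.7 and 137 CPM in PBS cells. PBS replicates 2 and 3 were the lowest and the highest of the 9 libraries, so both other groups lay within the PBS range. The log2 fold change of Scd1 against PBS was -0.15 (SE 0.178, adjusted p = 0.524) for MRC+L and -0.04 (SE 0.178, adjusted p = 0.883) for MRC. Without PBS replicate 2 both passed, at -0.34 for MRC+L (adjusted p = 0.00429) and -0.24 for MRC (adjusted p = 0.038). limma voom with quality weights over the 9 libraries also called the MRC+L difference, at -0.26 (adjusted p = 0.00196), but not the MRC difference, at -0.14 (adjusted p = 0.103). With PBS replicate 3 left out both changed sign, at 0.02 for MRC+L and 0.13 for MRC, and did not pass.

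Scd2 had 1264, 913 and 880.0 CPM in MRC+L cells, 851, 947 and 903 CPM in MRC cells, and 791, 447 and 864 CPM in PBS cells. MRC+L replicate 1 was the highest library and PBS replicate 2 the lowest, and the MRC+L libraries were all above the PBS libraries while the MRC and PBS libraries overlapped. The log2 fold change against PBS was 0.54 (SE 0.231, adjusted p = 0.079) for MRC+L and 0.36 (SE 0.23, adjusted p = 0.244) for MRC. The MRC+L difference passed without PBS replicate 2, at a smaller 0.30 (SE 0.117, adjusted p = 0.0358), and without PBS replicate 3, at 0.72 (adjusted p = 0.0237). It also passed with the length trend removed (0.52, adjusted p = 0.0383), without the filter (0.55, adjusted p = 0.00149) and in limma voom with quality weights (0.32, adjusted p = 0.00346). The MRC difference passed without the filter (0.39, adjusted p = 0.0432) and was at 0.11 (adjusted p = 0.435) without PBS replicate 2. Scd1 shares 4.56% and Scd2 3.97% of their windows with other genes, among them the other Scd genes, so reads could be lost between the copies.

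Of the 3 genes that hold peroxides in check, Gpx4 and Aifm2 fell in both nanoparticle groups and Gch1 did not pass. Gpx4 (ENSMUSG00000075706), at chr10:79883000-79892273 on the plus strand, encodes the selenoprotein that reduces phospholipid hydroperoxides. It had 193, 178 and 199 CPM in MRC+L cells, 191, 225 and 249 CPM in MRC cells, and 334, 534 and 270.4 CPM in PBS cells. All 6 nanoparticle libraries were below all 3 PBS libraries, among which PBS replicate 2 was far the highest. Gpx4 fell with a log2 fold change of -1.0 (SE 0.221, adjusted p = 0.00457) in MRC+L cells and -0.78 (SE 0.22, adjusted p = 0.0191) in MRC cells against PBS. Without PBS replicate 2 the log2 fold changes were smaller but passed, at -0.67 for MRC+L (SE 0.105, adjusted p = 1.52e-05) and -0.46 for MRC (SE 0.105, adjusted p = 0.00109). The MRC call, but not the MRC+L call, was lost without MRC replicate 1 (-0.68, adjusted p = 0.0844), without MRC replicate 2 (-0.79, adjusted p = 0.0599) and with only the 6 libraries compared (-0.77, adjusted p = 0.0587).

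The sequence around the selenocysteine codon of Gpx4 is shown because it is the feature that makes this enzyme a selenoprotein and because a pseudogene carries nearly the same letters. The Gpx4 codon lies at chr10:80054737-80054739 on the plus strand (GRCm38, GENCODE annotation), and the capitals mark the TGA that is read as selenocysteine, with the same TGA of the pseudogene Gpx4-ps2 marked below it.
Gpx4: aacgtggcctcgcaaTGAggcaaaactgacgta
Gpx4-ps2: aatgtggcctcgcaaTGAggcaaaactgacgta
The 2 stretches of 33 bases differ at 1 base and are 97% the same. Gpx4-ps2 was given 89 to 92 counts in MRC+L cells, 85 to 134 in MRC cells and 105 to 411 in PBS cells. Of the 50-base windows of Gpx4 transcripts, 34.7% also occur in Gpx4-ps2 or another gene. That is a share of windows and not of reads. Since ambiguous reads were left uncounted, the level of Gpx4 is uncertain in every library, by an amount that was not measured.

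Aifm2 (ENSMUSG00000020085), also known as FSP1, reduces ubiquinone and vitamin K at the plasma membrane and lies at chr10:61551042-61575039 on the plus strand. It had 26, 24.6 and 24.4 CPM in MRC+L cells, 26.5, 27.3 and 27 CPM in MRC cells, and 43.2, 50.8 and 40.3 CPM in PBS cells. The 3 groups did not overlap, and the 3 libraries within each nanoparticle group were nearly equal. Aifm2 fell with a log2 fold change of -0.84 (SE 0.112, adjusted p = 0.000242) in MRC+L cells and -0.73 (SE 0.112, adjusted p = 0.000686) in MRC cells. Without PBS replicate 2 the values were -0.74 for MRC+L and -0.64 for MRC, both past the threshold. The antisense neighbour H2afy2, which shares 4.5% of the windows of Aifm2, had at most 38 counts in a library.

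Gch1 (ENSMUSG00000037580), at chr14:47391352-47426870 on the minus strand, encodes the GTP cyclohydrolase that opens tetrahydrobiopterin synthesis. It had 20.8, 20.8 and 25.1 CPM in MRC+L cells, 24.2, 20.9 and 22.4 CPM in MRC cells, and 20.7, 24 and 16.9 CPM in PBS cells. The groups overlapped throughout, with PBS replicate 3 the lowest library. The log2 fold change against PBS was 0.11 (95% interval -0.22 to 0.45) for MRC+L and 0.13 (-0.20 to 0.47) for MRC. These intervals leave room for a change of either sign, and without PBS replicate 3 the MRC+L value was -0.01. Neither passed without PBS replicate 2, at 0.24 for MRC+L (adjusted p = 0.123) and 0.25 for MRC (adjusted p = 0.114).

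The remaining genes act on the supply of oxidants and on polyamines, and Sat1 held the largest change of the 10. Por (ENSMUSG00000005514) encodes the reductase that hands electrons of NADPH to cytochromes P450, to squalene epoxidase and to heme oxygenases, and it lies at chr5:135698887-135764180 on the plus strand. It had 146, 135 and 146 CPM in MRC+L cells, 143, 153 and 149 CPM in MRC cells, and 260.4, 302 and 225 CPM in PBS cells. Both nanoparticle groups lay far below the PBS libraries and overlapped each other. Por fell with a log2 fold change of -0.88 (SE 0.118, adjusted p = 0.000252) in MRC+L cells and -0.82 (SE 0.118, adjusted p = 0.000477) in MRC cells. It fell by 0.77 in MRC+L cells and 0.72 in MRC cells on the log2 scale without PBS replicate 2 and kept its calls.

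Sat1 (ENSMUSG00000025283) encodes the acetyltransferase that marks spermidine and spermine for export or oxidation, and in human cells it has been linked to lipid peroxidation downstream of p53. It lies at chrX:153996128-153999445 on the minus strand. Sat1 had 273, 320.5 and 322 CPM in MRC+L cells, 361, 259 and 309.9 CPM in MRC cells, and 59.4, 102 and 59 CPM in PBS cells. Every nanoparticle library was above every PBS library, PBS replicate 2 was the highest PBS library, and the 2 nanoparticle groups overlapped. Sat1 rose with a log2 fold change of 2.06 (SE 0.22, adjusted p = 6.1e-05) in MRC+L cells and 2.08 (SE 0.22, adjusted p = 8.03e-05) in MRC cells, that is 4.16-fold in MRC+L cells and 4.23-fold in MRC cells. Without PBS replicate 2 it was 5.15-fold in MRC+L cells and 5.21-fold in MRC cells. The change of Sat1 stood above that of 97.6% of all tested genes in MRC+L cells and of 98.3% in MRC cells. Pseudogenes share 2.72% of its windows and had at most 5 counts in a library.

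The promoter windows of Sat1, Aifm2 and Por are shown because these 3 genes kept their calls against PBS, in both comparisons, under every alternative of the analysis that was run. Each runs from 250 bases before to 50 bases after the start site in the RefSeq annotation of GRCm38.p6, and the capitals mark the 50 bases from the start site on. The Sat1 window is chrX:155216400-155216699 on the minus strand, the Aifm2 window chr10:61720399-61720698 on the plus strand and the Por window chr5:135688895-135689194 on the plus strand.
Sat1: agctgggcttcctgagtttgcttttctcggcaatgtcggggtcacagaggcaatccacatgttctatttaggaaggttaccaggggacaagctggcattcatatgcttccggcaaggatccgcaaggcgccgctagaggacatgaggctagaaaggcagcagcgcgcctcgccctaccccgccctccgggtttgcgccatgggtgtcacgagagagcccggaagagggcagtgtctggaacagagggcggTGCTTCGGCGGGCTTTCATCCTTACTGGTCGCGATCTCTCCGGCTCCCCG
Aifm2: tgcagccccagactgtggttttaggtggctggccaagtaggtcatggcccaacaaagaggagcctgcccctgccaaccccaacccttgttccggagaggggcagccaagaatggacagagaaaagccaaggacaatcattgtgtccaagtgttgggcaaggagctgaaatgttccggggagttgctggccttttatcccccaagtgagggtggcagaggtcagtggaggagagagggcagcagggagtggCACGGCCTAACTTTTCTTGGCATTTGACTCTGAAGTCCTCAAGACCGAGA
Por: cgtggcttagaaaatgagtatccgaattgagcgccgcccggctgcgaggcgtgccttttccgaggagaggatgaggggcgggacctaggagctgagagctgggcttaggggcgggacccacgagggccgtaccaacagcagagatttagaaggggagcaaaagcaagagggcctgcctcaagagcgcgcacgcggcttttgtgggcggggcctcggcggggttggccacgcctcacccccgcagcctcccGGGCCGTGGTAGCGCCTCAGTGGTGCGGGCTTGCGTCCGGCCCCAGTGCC
The GC content of the windows was 60.3% for Sat1, 56% for Aifm2 and 67.3% for Por, beside a median of 52.7% over 32851 windows. Sat1 and Por held 21 and 27 CpG dinucleotides and Aifm2 held 4, beside a median of 7. RefSeq windows were found for 8 of the 10 genes, 11 windows in all, and not for Scd1 and Scd2. Searched on both strands, TGACNNNGC (the core of the antioxidant response element) was in 0 of the 11 windows and in 12.4% of all windows. TCACNCCAC (a sterol regulatory element) was in 0 and 1.24%, and TGATGNAA (a C/EBP-ATF element) in 0 and 3.97%. The absence of a match says only that these letters are not within these windows.

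**Figure D2:**
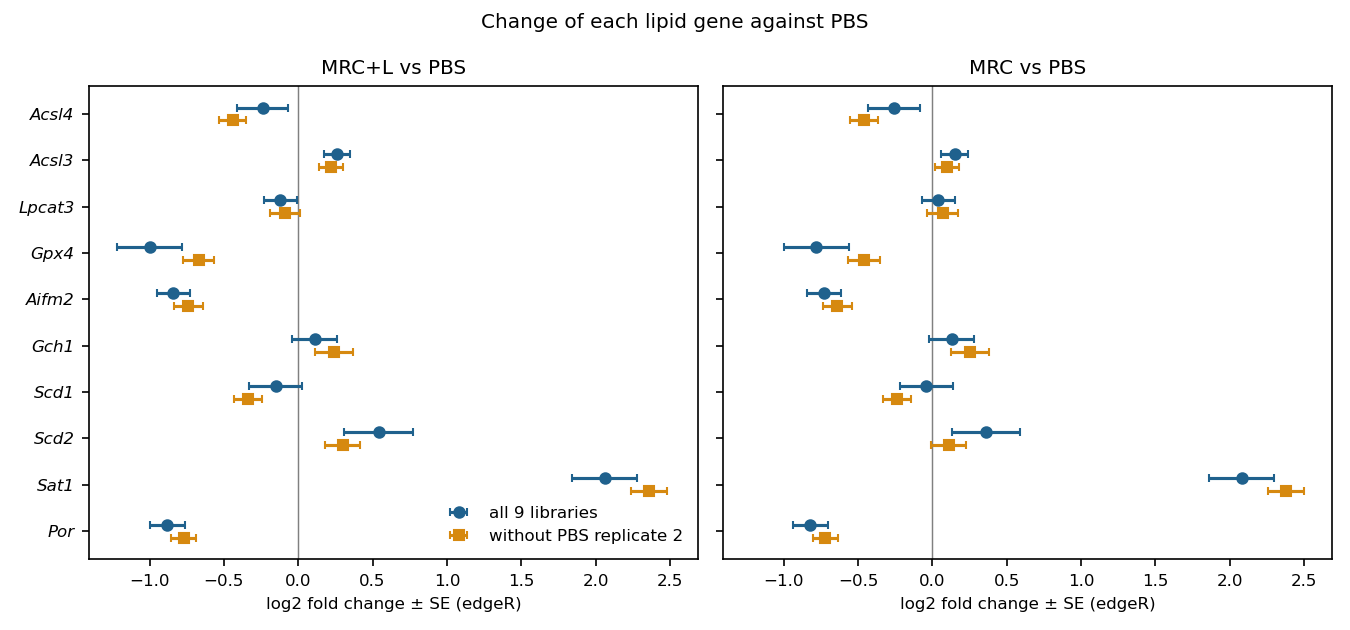
Log2 fold change of each lipid gene against PBS in MRC+L cells (left) and MRC cells (right), from edgeR, with bars of 1 SE. Circles use all 9 libraries and squares leave out PBS replicate 2. Sat1 stands near 2 in both panels, Gpx4, Aifm2 and Por lie below 0 with and without that library, and Gpx4 and Sat1 shift the most when it is left out.

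Leaving out PBS replicate 2 changed how many of the 10 genes were called. In MRC+L cells against PBS the count was then 3 higher and 5 lower, with Scd2 added to those that rose and Acsl4 and Scd1 to those that fell, where 55.7% of all genes were called, 27.4% higher and 28.3% lower. In MRC cells against PBS it was 1 higher and 5 lower, with Acsl4 and Scd1 added to those that fell, where 50.6% were called, 24.7% higher and 26% lower. The lipid genes differed in how far PBS replicate 2 lay from the other PBS libraries. Gpx4 and Sat1, the shortest of the 10 at 1724 and 2774 bases of exon, were 0.83 and 0.78 higher in it on the log2 scale. Scd2, Scd1 and Acsl4, at 5464, 4892 and 5405 bases, were lower in it, at -0.89, -0.69 and -0.68. With all tested genes put into 10 bins by length, the median difference ran from 0.65 in the shortest bin, with a median length of 856 bases, to -0.69 in the longest, with a median of 12011 bases. Several of the 10 lay off this trend. Scd1, Scd2 and Acsl4 were well below the medians of the bins around 4478 and 5367 bases, at -0.07 and -0.17. Sat1 was above those of the bins around 2445 and 3068 bases, at 0.37 and 0.22, and Gpx4 above that around 1741 bases, at 0.55. Gch1, the longest of the 10 at 6251 bases, was 0.36 higher in PBS replicate 2 while genes of like length were lower in it, with a median of -0.29 in the bin around 6441 bases. With the length trend of each library removed in the fit, the log2 fold change of Gpx4 was -0.69 in MRC+L cells and -0.54 in MRC cells, that of Sat1 2.23 in MRC+L cells and 2.20 in MRC cells, and that of Acsl4 -0.26 in MRC+L cells and -0.28 in MRC cells, with Gpx4 and Sat1 called and Acsl4 not.

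**Figure D3:**
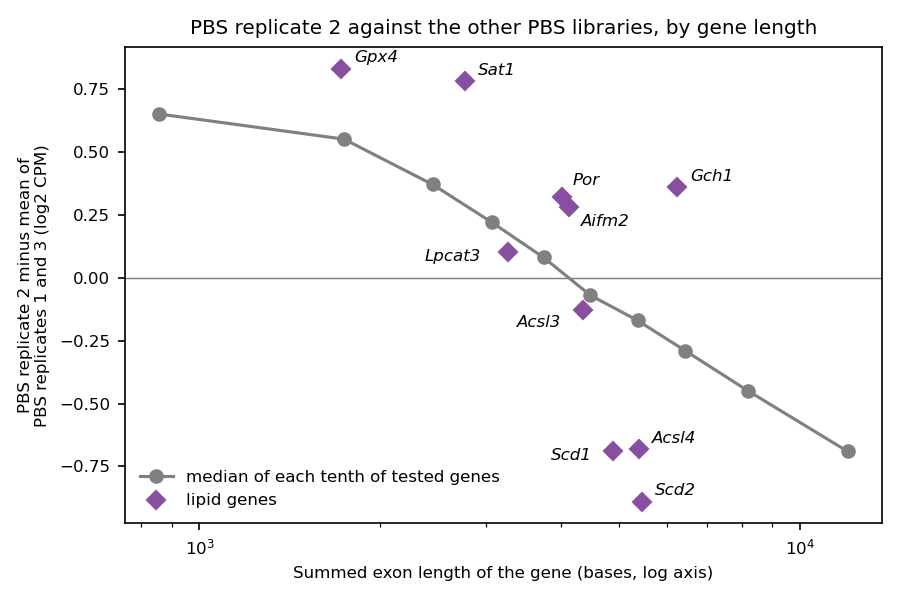
Log2 CPM of PBS replicate 2 minus the mean of PBS replicates 1 and 3 (vertical axis) against summed exon length in bases (horizontal log axis). Grey points are medians of 10 length bins of the tested genes and diamonds are the 10 lipid genes. Gpx4 and Sat1 are 0.83 and 0.78 higher in that library. Scd2 is at -0.89 where the bin around 5367 bases has a median of -0.17, and Gch1 is at 0.36 where the median for its length lies below 0.

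The addition of light was read from MRC+L cells against MRC cells. No lipid gene was called by edgeR over 9 libraries, and 0 of the 10 had an unadjusted p under 0.05, beside 573 of all 13439 tested genes. DESeq2 called 25 and limma voom 262 of the 13439 genes. At such low shares 0 of 10 does not set the lipid genes apart from other genes. In a fit of only the 6 libraries compared, 654 of 12955 genes, or 5.05%, were called, 3.13% higher and 1.91% lower, and again 0 of the 10 lipid genes. Gpx4 alone of the 10 had an unadjusted p under 0.05 in that fit, with a log2 fold change of -0.22 (95% interval -0.38 to -0.06, adjusted p = 0.106). Gpx4 is the shortest of the 10 genes, and with the length trend removed over all 9 libraries its value was -0.15 (adjusted p = 0.927). With PBS replicate 2 left out the call rate was 0.647%, 0.313% higher and 0.335% lower, with 0 lipid genes called and Gpx4 alone at an unadjusted p under 0.05. The log2 fold changes over 9 libraries ran from -0.22 (95% interval -0.71 to 0.27) for Gpx4 to 0.18 (-0.33 to 0.69) for Scd2. That of Sat1 was -0.02 (-0.49 to 0.45), and it was 0.03 with the length trend removed. Por was at -0.06 (-0.32 to 0.21), and Acsl4 at 0.02 (-0.36 to 0.41). The MRC+L and MRC libraries did not overlap for 1 gene higher in MRC+L, Acsl3 at 0.11 (-0.09 to 0.31), and 1 gene lower, Aifm2 at -0.11 (-0.36 to 0.14). Over all genes 24.4% were apart, 11.8% higher and 12.6% lower. The intervals of these 10 genes show what sizes remain possible and do not show that light left them as they were.

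Levels were compared between genes per kilobase of exon. In the nanoparticle groups Scd2 led, with 186 ± 38.9 CPM per kb in MRC+L cells and 165 ± 8.77 CPM per kb in MRC cells (SD, n = 3 each), and its libraries were above those of Gpx4. Gpx4 and Sat1 then overlapped, at 110.2 ± 6.48 and 110.0 ± 9.89 CPM per kb in MRC+L cells and at 128 ± 16.9 and 112 ± 18.3 CPM per kb in MRC cells. Por followed with 35.4 ± 1.58 CPM per kb in MRC+L cells and 36.9 ± 1.25 CPM per kb in MRC cells. In PBS cells Gpx4 led with 220.3 ± 79.9 CPM per kb, then came Scd2 with 128 ± 40.8, Por with 65.3 ± 9.5 and Sat1 with 26.4 ± 8.8. The libraries of Gpx4 and Scd2 overlapped, as did those of Sat1, Acsl4, Scd1 and Acsl3, each with the next in that order. Gch1 was the lowest of the 10 in every group, at 3.56 ± 0.404 CPM per kb in MRC+L cells, 3.6 ± 0.263 in MRC cells and 3.28 ± 0.571 in PBS cells. Aifm2 was next to last, at 6.07 ± 0.217 CPM per kb in MRC+L cells, 6.54 ± 0.0894 in MRC cells and 10.9 ± 1.31 in PBS cells.

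**Figure D4:**
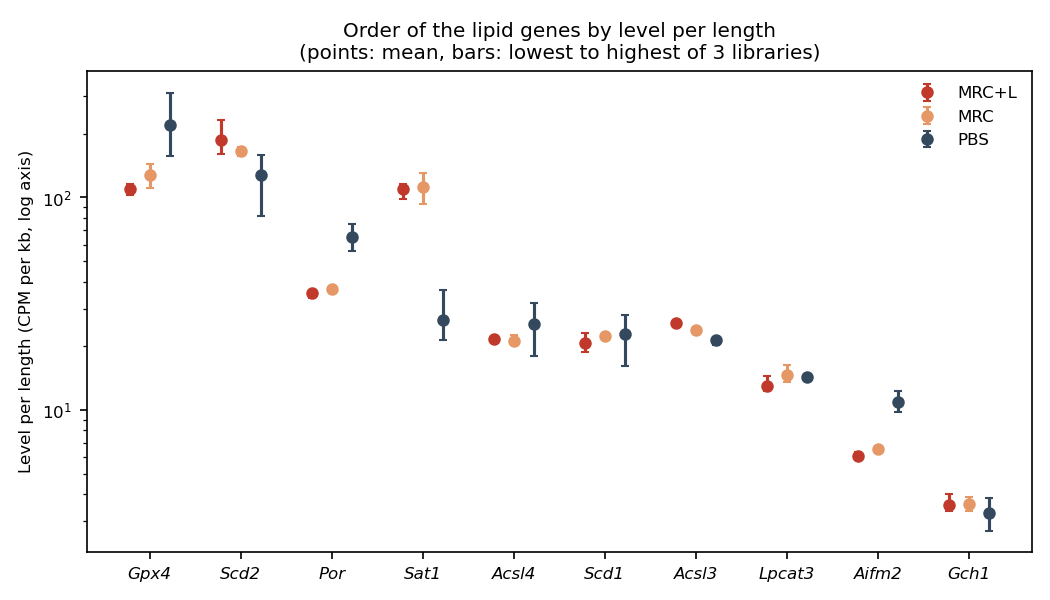
Level per length of each lipid gene in TMM-scaled CPM per kb of exon (vertical log axis), with genes ordered by their mean in PBS cells (horizontal axis). Points are means of 3 libraries and bars run from the lowest to the highest library of MRC+L, MRC and PBS cells. Sat1 and Gpx4 overlap in both nanoparticle groups, where Sat1 is higher and Gpx4 lower than in PBS cells. Sat1 is at 110.0 CPM per kb in MRC+L cells against 26.4 CPM per kb in PBS cells. Gpx4 is at 110.2 CPM per kb in MRC+L cells against 220.3 CPM per kb in PBS cells, whose libraries run from 157 to 310.0. Gch1 is lowest throughout.

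The pathway around these 10 genes was described with 9 further lists of 101 genes in all, of which 86 were tested. In MRC+L cells against PBS cells 22 rose and 31 fell, or 25.6% and 36% of them, beside 21.8% higher and 24.5% lower over all tested genes. In MRC cells 18 rose and 21 fell, or 20.9% and 24.4%, beside 17.8% higher and 19.8% lower over all tested genes. The counts without PBS replicate 2 were 26 higher and 33 lower in MRC+L cells, where 27.4% and 28.3% of all genes were called, and 24 higher and 26 lower in MRC cells, where 24.7% and 26% were. These shares of all genes are the background of each list count that follows, and the lists were chosen with earlier results of these data known. The median of their log2 fold changes was -0.15 in MRC+L cells and -0.13 in MRC cells. In MRC+L against MRC cells 0 of the 86 were called over 9 libraries. At an unadjusted p under 0.05 were 6, beside 573 of all 13439 genes. In the fit of 6 libraries 3.49% were called higher and 5.81% lower, that is 3 and 5, beside 3.13% and 1.91% of all genes. Of the genes named below, Hmox1 (0.60, adjusted p = 4.66e-05) and Acacb were among the 3, and Cyb5r3, Spr and Gchfr among the 5. Hmox1 was also called there without PBS replicate 2 (0.60, adjusted p = 0.00224). The genes named from each list are up to 3 with the smallest adjusted p in MRC against PBS. Their values are from edgeR over all 9 libraries, and every call given for them below held without PBS replicate 2.

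Acyl chain activation and remodelling held 14 tested genes, of which 3 rose and 10 fell in MRC+L cells (21.4% and 71.4%) and 3 rose and 7 fell in MRC cells (21.4% and 50%). It was again 3 and 10 in MRC+L cells, and 3 and 9 in MRC cells, without PBS replicate 2. Pla2g4a, the cytosolic phospholipase that frees arachidonate, had 129, 142 and 138 CPM in MRC+L cells, 177, 140.2 and 161 CPM in MRC cells, and 39.4, 37.5 and 45.4 CPM in PBS cells. Its groups with nanoparticles lay far above PBS, with log2 fold changes of 1.74 in MRC+L cells (adjusted p = 4.62e-06) and 1.97 in MRC cells (adjusted p = 4.25e-06). The further acyl-CoA synthetase Acsl6, a form known from brain, fell by 1.37 in MRC+L cells and 1.33 in MRC cells on the log2 scale, and Acsl5, known from intestine, fell by 0.63 in MRC+L cells and 0.59 in MRC cells. Ether lipid synthesis, which supplies polyunsaturated plasmalogens, had 9 tested genes. There 1 rose and 2 fell in MRC+L cells, and 0 were called by edgeR in MRC cells, where 1 had an unadjusted p under 0.05. When PBS replicate 2 was left out, 1 rose and 3 fell in MRC+L cells and 1 rose and 1 fell in MRC cells. Pex5, the peroxisomal import receptor, was at 0.18 in MRC+L cells and 0.28 in MRC cells, and Pex7, a further one, at -0.21 in MRC+L cells and -0.44 in MRC cells, none of which passed. The MRC value of Pex5 lay at the threshold (adjusted p = 0.051), and it passed at 0.26 (adjusted p = 0.0264) without PBS replicate 2, at 0.35 (0.0482) without PBS replicate 1, with the length trend removed (0.32, 0.0136), with DESeq2 size factors (0.29, 0.0476), in DESeq2 (0.28, 0.0197) and in limma voom (0.16, 0.0405). Its MRC+L value passed with the length trend removed (0.25, 0.0361). Gnpat, which starts ether lipid synthesis, was at -0.30 in MRC+L cells, which passed (adjusted p = 0.0275), and at -0.16 in MRC cells, which did not, although limma voom called it there (-0.21, adjusted p = 0.00724).

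Among 11 genes of lipid oxidation only 3 had enough counts to test. The lipoxygenase genes Alox5, Alox12, Alox12b, Alox15 and Alox8 had at most 10 counts in any library, the NADPH oxidase gene Nox1 had at most 12, and Nox4 and Cybb had 0 in all 9. Aloxe3, an epidermal lipoxygenase, had 10.7, 10.2 and 11.5 CPM in MRC+L cells, 7.73, 9.03 and 6.99 CPM in MRC cells, and 1.25, 0.706 and 1.31 CPM in PBS cells. The 3 groups did not overlap, and Aloxe3 rose on the log2 scale by 3.30 in MRC+L cells (adjusted p = 4.5e-06) and by 2.85 in MRC cells (adjusted p = 1.59e-05). Cyb5r1, a cytochrome b5 reductase that can hand electrons to oxygen as POR does, rose by 1.12 in MRC+L cells and 1.07 in MRC cells, whereas Por fell. Cyba, a subunit of NADPH oxidases, was at -0.78 in MRC+L cells (adjusted p = 0.0323) and at -0.51 in MRC cells (adjusted p = 0.149). The MRC value passed without PBS replicate 3 (-0.73, adjusted p = 0.0208) and without the filter (-0.48, adjusted p = 0.0191), and was at -0.06 without PBS replicate 2. Of this list 2 rose and 1 fell in MRC+L cells and 2 rose and 0 fell in MRC cells, with or without PBS replicate 2. Fatty acid synthesis had 9 tested genes, of which 3 rose and 2 fell in MRC+L cells and 2 rose and 2 fell in MRC cells, and without PBS replicate 2 it was 3 and 3 in MRC+L cells and 2 and 4 in MRC cells. Scd3, a further desaturase next to Scd1 and Scd2, was low but rose, with 4.86, 7.5 and 5.27 CPM in MRC+L cells, 4.88, 5.18 and 5.7 CPM in MRC cells, and 0.261, 0.765 and 0.56 CPM in PBS cells. Its log2 fold changes of 3.47 in MRC+L cells and 3.32 in MRC cells rest on 5 to 13 counts in PBS libraries, and its reads can be lost to Scd1 and Scd2. Elovl7, an elongase of long saturated chains, rose by 1.04 in MRC+L cells and 1.06 in MRC cells, and Acacb, the acetyl-CoA carboxylase at mitochondria, fell by 0.58 in MRC+L cells and 1.12 in MRC cells.

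Genes that serve the protective enzymes moved in both directions. Selenoprotein synthesis had 11 tested genes, of which 4 rose and 1 fell in MRC+L cells (36.4% and 9.09%) and 5 rose and 1 fell in MRC cells (45.5% and 9.09%), and without PBS replicate 2 it was 6 and 2 in MRC+L cells and 6 and 1 in MRC cells. Secisbp2, which binds the selenocysteine insertion element, rose on the log2 scale by 0.74 in MRC+L cells and 0.61 in MRC cells. Sepsecs, which makes the selenocysteinyl tRNA, rose by 0.79 in MRC+L cells and 0.61 in MRC cells. Scly, which recycles selenium, fell by 0.76 in MRC+L cells and 0.83 in MRC cells, and the selenoprotein gene Gpx4 fell. Of 15 genes of the ubiquinone and vitamin K cycle, 3 rose and 4 fell in MRC+L cells and 1 rose and 2 fell in MRC cells, and without PBS replicate 2 it was 3 and 3 in MRC+L cells and 2 and 2 in MRC cells. Cyb5r3, a reductase of cytochrome b5, had 177, 159 and 162 CPM in MRC+L cells, 181, 202 and 206 CPM in MRC cells, and 352, 385 and 309.7 CPM in PBS cells. The 3 groups did not overlap, as with Aifm2, and Cyb5r3 fell by 1.07 in MRC+L cells and 0.83 in MRC cells. Coq4, which serves ubiquinone synthesis, fell by 0.64 in MRC+L cells and 0.61 in MRC cells. Of 6 tested genes of the tetrahydrobiopterin list 0 rose and 3 fell in either comparison, and without PBS replicate 2 it was 0 and 3 in MRC+L cells and 1 and 3 in MRC cells. Gchfr, the feedback regulator of the Gch1 enzyme, had 10.4, 13 and 10.3 CPM in MRC+L cells, 15.8, 15.5 and 15.9 CPM in MRC cells, and 30.1, 70.1 and 22.7 CPM in PBS cells. With all libraries it fell by 1.87 in MRC+L cells and 1.38 in MRC cells on the log2 scale. Without PBS replicate 2, its highest library, it fell by 1.24 in MRC+L cells and 0.76 in MRC cells. Of the enzymes that complete tetrahydrobiopterin synthesis, Spr fell by 0.97 in MRC+L cells and 0.61 in MRC cells, and Pts fell by 0.48 in MRC+L cells and 0.52 in MRC cells.

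Polyamine metabolism, to which Sat1 belongs, had 12 further tested genes, of which 4 rose and 6 fell in MRC+L cells (33.3% and 50%) and 3 rose and 4 fell in MRC cells (25% and 33.3%). It was 4 and 6 in MRC+L cells and 4 and 4 in MRC cells without PBS replicate 2. Smox, the spermine oxidase, had 184, 157 and 166 CPM in MRC+L cells, 179, 172 and 178 CPM in MRC cells, and 112, 119 and 92.6 CPM in PBS cells, all of them below the other groups. It rose on the log2 scale by 0.65 in MRC+L cells and 0.71 in MRC cells. Sms, the spermine synthase, had 100.1, 99.3 and 98.8 CPM in MRC+L cells, 114, 104 and 119 CPM in MRC cells, and 191, 207 and 170.4 CPM in PBS cells, and the groups were apart. It fell by 0.93 in MRC+L cells and 0.76 in MRC cells. Oaz2, an antizyme of ornithine decarboxylase, fell by 0.74 in MRC+L cells and 0.65 in MRC cells. The list of POR partners, which also holds Nos2, a relative with a reductase domain of its own, had 7 tested genes, of which 2 rose and 2 fell in either comparison, and without PBS replicate 2 it was 4 and 2 in MRC+L cells and 3 and 2 in MRC cells. Hmox1, the inducible heme oxygenase, had 826, 823 and 846 CPM in MRC+L cells, 638, 497 and 515 CPM in MRC cells, and 23.5, 54.9 and 30.4 CPM in PBS cells. All groups were apart, and Hmox1 rose on the log2 scale by 4.52 in MRC+L cells (adjusted p = 3.33e-06) and by 3.92 in MRC cells (adjusted p = 8.78e-06). Hmox2, the constitutive heme oxygenase, fell by 0.77 in MRC+L cells and 0.62 in MRC cells, and Sqle, the squalene epoxidase, rose by 0.47 in MRC+L cells and 0.41 in MRC cells.

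**Figure D5:**
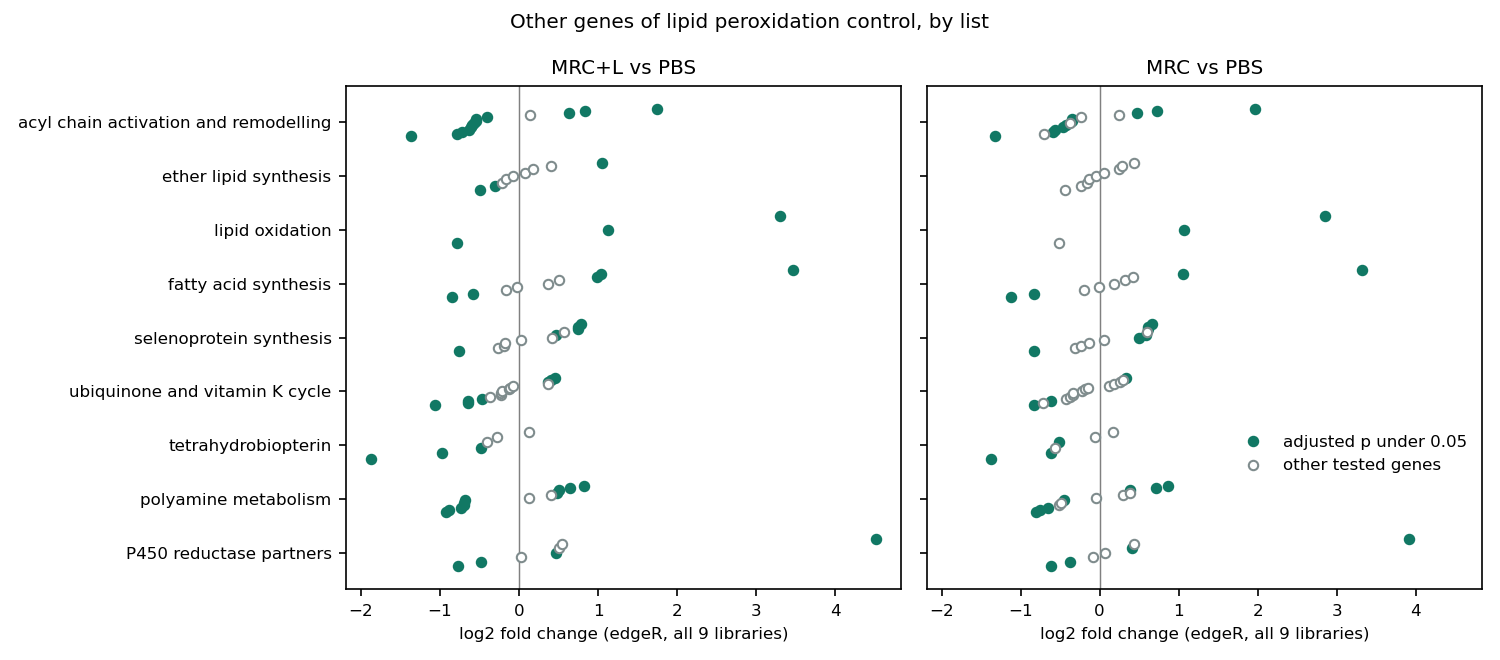
Log2 fold changes of the 86 tested genes in the 9 further lists (rows) in MRC+L against PBS (left) and MRC against PBS (right), from edgeR over all 9 libraries. Filled points passed an adjusted p of 0.05 and open points did not. The points farthest to the right are Hmox1, Scd3, Aloxe3 and Pla2g4a, and most filled points of the acyl chain list lie below 0, 10 of them in MRC+L cells.

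Several of these calls were lost when 1 library was left out, while the log2 fold change stayed of like size. In MRC cells against PBS, Spr lost its call without any 1 library other than PBS replicate 2 or 3 (-0.69 to -0.57 against -0.61 with all libraries, adjusted p 0.0678 to 0.134). Coq4 lost it without PBS replicate 1 or MRC replicate 1 or 2 (-0.63 to -0.52 against -0.61, adjusted p 0.0648 to 0.102). Pts lost it without PBS replicate 1 or MRC replicate 1 (-0.48 and -0.43 against -0.52, adjusted p 0.053 and 0.0643), and Sqle without MRC replicate 1 (0.34 against 0.41, adjusted p = 0.0783). In MRC+L cells against PBS, Gnpat lost its call without PBS replicate 1 or any MRC+L library (-0.32 to -0.26 against -0.30, adjusted p 0.0674 to 0.118). Cyba lost it without MRC replicate 2 or any MRC+L library (-0.81 to -0.77 against -0.78, adjusted p 0.053 to 0.0905), and Acacb without PBS replicate 1 or 3 or MRC+L replicate 1 or 2 (-0.61 to -0.45 against -0.58, adjusted p 0.0567 to 0.106). Coq4 lost it without MRC+L replicate 2 (-0.51 against -0.64, adjusted p = 0.071), and Pts without PBS replicate 1 or MRC+L replicate 2 (-0.44 and -0.41 against -0.48, adjusted p 0.0607 and 0.0759). With PBS replicate 2 left out Spr kept its calls at -0.66 in MRC+L cells and -0.31 in MRC cells, and Cyba kept its call at -0.33 in MRC+L cells. In edgeR with only the 6 libraries compared, calls were lost for Spr and Sqle in MRC cells (adjusted p 0.107 and 0.0573). In MRC+L cells they were lost there for Cyba, Acacb and Gnpat (0.0807, 0.0615 and 0.0578). Without the filter Pts lost its call in MRC cells (0.054) and in MRC+L cells (0.0579), and Gnpat in MRC+L cells (0.167). Gnpat also lost it with the length trend removed (0.0643).

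The genes most like Gpx4 and Acsl4 over the 9 libraries were named by the correlation of log2 CPM among 11633 protein-coding genes. For Gpx4 they were Pebp1 (r = 0.998), Syngr2 (0.994) and Ube2c (0.993), with exon lengths of 1768, 1776 and 2600 bases beside 1724 bases for Gpx4. For Acsl4 they were Itgav (0.993), Uevld (0.99) and Erap1 (0.988), with 10744, 7549 and 7280 bases beside 5405. These 9 points share the libraries and their length trend, and with PBS replicate 2 left out the correlations were 0.982 to 0.993 for the Gpx4 genes and 0.986 to 0.993 for the Acsl4 genes.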

How the data were processed

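RNA-seq of 9 libraries of 4T1 cells was analysed, 3 each of MRC+L, MRC and PBS cells as the titles name them. The authors deposited 1 table of raw counts per gene and library, made with featureCounts 2.0.1 from paired ends, summed over the exons of each gene of Ensembl release 104 (GRCm39), with no strand option, per the file headers. The aligner is not given in the sources used here. Trizol was used for extraction and a TruSeq RNA kit for the libraries, per the labels' protocols. Symbols matched 94.1% of identifiers through GENCODE, an annotation of GRCm38.

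Counts were analysed in R 4.3.3 with edgeR 4.0.16 (filterByExpr at min.count 10 and min.total.count 15, TMM factors, quasi-likelihood test, 1 mean per group, all 9 libraries). A gene counted as called when its p, adjusted by Benjamini-Hochberg over all 13439 genes kept, was under 0.05. The SE is the log2 fold change divided by the root of the quasi-likelihood F. Python 3.11.15, pandas 2.3.3 and matplotlib 3.10.9 gave the tables and figures. The procedure was tested on simulated counts. These were drawn without a length trend, so that test does not cover the trend of PBS replicate 2. Floors and intervals of single libraries cover counting error only.

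Alternatives were DESeq2 size factors, DESeq2 1.42.0, limma 3.58.1 voom with quality weights, no filter, the replicate number as a block, the length trend of each library removed (lowess span 0.3), only the 6 libraries compared, and each library left out. The 10 genes, the 9 further lists, the markers and the motifs were chosen with earlier results of these data known. All 10 genes are reported, and up to 3 tested genes per further list with the smallest adjusted p in MRC against PBS are named, with the 3 protein-coding genes best correlated with Gpx4 and with Acsl4. A gene that the rule names is not reported here. Shared sequence was counted as 50-base windows of transcripts that also occur in another gene.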

Additional observations from a re-analysis of the deposited data

How the results depend on the processing

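With 1 library left out, 76 of 81 counts of called genes were within 1.5 times the value reported, and with the other alternatives 52 of 63. A count of 0 beside 0 was taken as within it, so these shares include MRC+L against MRC, where 0 lipid genes were called under every alternative. In MRC+L against PBS, limma voom called 9856 of 13439 genes and 8 of the 10 lipid genes. Leaving out 1 library gave 4 to 8 lipid genes beside 4702 to 7659 of all genes, with the highest of both without PBS replicate 2. For MRC against PBS, limma voom called 8851 of 13439 genes and 63 of the 86 tested genes of the further lists. The highest of these counts came where the most of all genes were called, but the 2 did not move in step. In MRC against PBS 4 lipid genes were called beside 5050 of all genes with every library, and 4 beside 6290 without PBS replicate 3. For MRC+L against MRC, DESeq2 called 25 genes, limma voom 262, no filter 15, the length trend removed 4 and the 6 libraries alone 654, and leaving out 1 library gave 0 to 89. Of the further lists limma voom called 2 there and the 6 libraries alone 8, and leaving out 1 library gave 0 to 1. The 6-library fit leaves out the spread of PBS replicate 2 by construction; the cause of the other shifts was not tested.

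Signs reversed for log2 fold changes that were not called with all libraries. With 1 library left out, MRC+L against PBS ran from -0.01 to 0.24 for Gch1, -0.34 to 0.02 for Scd1 and -0.38 to 0.08 for Pex7. MRC against PBS ran from -0.03 to 0.10 for Lpcat3 and -0.24 to 0.13 for Scd1. MRC+L against MRC ran from -0.01 to 0.07 for Acsl4, -0.11 to 0.04 for Gch1, -0.01 to 0.28 for Scd2 and -0.14 to 0.10 for Sat1, and Sat1 was at 0.03 with the length trend removed.

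The replicate numbers did not pair the libraries: deviations of same-numbered libraries correlated at -0.185 to 0.0385. With the replicate number as a block, 4 lipid genes were called in MRC+L against PBS, beside 5490 of all tested genes. Acsl3 was lost there (adjusted p = 0.072). In MRC against PBS 4 lipid genes were called under this block, beside 4283 of all tested genes. Of the other genes named, Gnpat and Cyba lost their calls in MRC+L and Coq4 and Spr in MRC against PBS, and no other named gene did.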

Other observations

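The balance between the 2 desaturases was looked at after their values were seen. Per length, Scd2 over Scd1 was 10, 8.39 and 8.61 in MRC+L cells, 7.09, 7.68 and 7.53 in MRC cells, and 5.96, 5.08 and 5.66 in PBS cells. The 3 groups were apart, with means of 9 ± 0.879 in MRC+L cells, 7.43 ± 0.31 in MRC cells and 5.57 ± 0.449 in PBS cells (SD, n = 3 each), and PBS replicate 2 lay only a little below the other PBS libraries although it was the lowest library for either gene. Acsl4 over Gpx4 per length was 0.196, 0.209 and 0.181 in MRC+L cells, 0.188, 0.154 and 0.156 in MRC cells, and 0.135, 0.058 and 0.203 in PBS cells, so there the PBS libraries spread over the widest range and the groups overlapped. Both ratios are descriptions and were given no test.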
